A study of Bos grunniens with 6 samples.

Results

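The 8 miRNAs described here, bta-miR-127, bta-miR-136, bta-miR-370, bta-miR-431, bta-miR-432, bta-miR-433, bta-miR-493 and bta-miR-665 (written without the cattle prefix from here on), come from the DLK1-proximal part of the imprinted DLK1-DIO3 domain. They were chosen by genome location, as 9 named miRNAs, and matched by name without the arm. The table gave 8 entries of its 2853, and miR-337 was not analysed here. Small RNA was sequenced from wild-type cultured cells of yak (Bos grunniens) skin, 3 libraries of dermal papilla cells and 3 libraries of hair matrix cells. Dermal papilla cells form the mesenchymal core at the foot of a hair follicle, and the epithelial hair matrix cells around them divide to build the hair shaft. Both were grown in DMEM/F12 medium with serum, IGF1, EGF and antibiotics. The labels call the libraries biological replicates and name no animal, passage or culture, so a p-value here reflects only the spread among the libraries sequenced, which may be technical.

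In mammals the DLK1-DIO3 domain is imprinted. The protein-coding genes DLK1, RTL1 and DIO3 are expressed from the paternal chromosome, and long non-coding RNAs, snoRNAs and many miRNAs are expressed from the maternal one. Several of the miRNAs lie in a transcript antisense to RTL1, a retrotransposon-derived gene of the placenta, and being fully complementary to its mRNA they are known to direct its cleavage. miR-127, miR-136, miR-431, miR-432 and miR-433 belong to this antisense group, whereas miR-493 and miR-665 lie on the MEG3 side of it and miR-370 lies beyond it, towards the larger miR-379 to miR-656 cluster. The domain is known from embryonic, muscle and mesenchymal cells, and DLK1 itself holds back adipocyte differentiation. In the RefSeq gene table of the yak assembly Bosgru_T2T1.0, RTL1 lies between DLK1 and DIO3, the long non-coding RNA gene LOC147348947 overlaps it, and 37 snoRNA genes lie between RTL1 and DIO3. The files name no genome build, so no position is given.

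The sequences of the 7 miRNAs that passed the filter on low values show that they are separate guides and not copies of one. They are printed 5′ to 3′ as the deposited table gives them, in DNA letters, with the seed (bases 2 to 8, which pair with target mRNAs) in capitals.
miR-127: tCGGATCCgtctgagcttggct
miR-493: tGAAGGTCtactgtgtgccagg
miR-370: gCCTGCTGgggtggaacctggt
miR-432: tCTTGGAGtaggtcattgggtgg
miR-433: aTCATGATgggctcctcggtgt
miR-136: aCTCCATTtgttttgatgatgga
miR-431: tGTCTTGCaggccgtcatgcagg
The 8 miRNAs had 8 different seeds, so none forms a seed family with another. No other entry with a cattle name shared any of these seeds. The seed of miR-432 also occurred in 2 predicted entries, which averaged at most 0.0690 RPM over the 6 libraries. No entry of the table was near-identical to any of the 8 (1 mismatch or none over 18 or more aligned bases). Sharing of reads with less similar entries or with unlisted sequences was not examined. The GC content of the mature sequences ran from 34.8% in miR-136 to 70.0% in miR-665, and 4 of the 8 began with T.

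Levels are given in RPM, the reads of an entry per 1000000 reads of its library. The deposited values resolve into whole reads, with library totals of 23904796 to 24693655 reads, of which 71.7% to 73.5% fell on listed entries, and 1 read was worth 0.0405 to 0.0418 RPM. Lists of cell type markers were summed in each library. The lists were chosen with earlier results of these data known, so they give no independent check of the labels. The 6 entries of the mesenchymal list (miR-143, miR-145, miR-199a, miR-199b, miR-214) summed to 88413 to 91201 RPM in dermal papilla libraries and 1204 to 1421 RPM in hair matrix libraries, with miR-143 and miR-199a-3p the most abundant. The 7 entries of the epithelial list (miR-200a, miR-200b, miR-200c, miR-141, miR-429, miR-205, miR-184) summed to 386 to 458 RPM and 80101 to 82871 RPM, led by miR-184 and miR-200c. miR-203, also on the epithelial list, was not analysed here. Markers of other cell types summed to less than both lists in every library. Endothelial miR-126 was at 3.68 to 4.70 RPM in dermal papilla and 2.57 to 4.01 RPM in hair matrix libraries. The 6 blood entries, mostly miR-451, were at 18.4 to 21.6 and 8.59 to 11.8 RPM. The 4 muscle entries, mostly miR-1, were at 57.9 to 72.7 and 24.6 to 26.3 RPM. The blood and muscle sums were thus higher in dermal papilla libraries, without overlap. With means of 66.0 and 17.5 RPM in dermal papilla cells, miR-1 and miR-451 lay above miR-136, miR-431 and miR-665. The source of these reads was not tested. miR-211 of melanocytes had no read in dermal papilla libraries and at most 0.0810 RPM in a hair matrix library.

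The proximal DLK1-DIO3 miRNAs were read almost entirely in dermal papilla cells. The 8 entries summed to 3297 to 3685 RPM in dermal papilla libraries (78930 to 89346 reads) and to 6.0 to 7.41 RPM in hair matrix libraries (147 to 180 reads). As a share of listed reads this was 0.477% ± 0.0335 (SD, n = 3) for dermal papilla cells, against 0.000951% ± 0.000106 (SD, n = 3) for hair matrix cells. In bulk samples like these, fewer cells of a type and less RNA per cell cannot be told apart. For the comparison of single miRNAs, an entry had to reach 1 RPM in 3 or more of the 6 libraries and was then tested with limma on log2(RPM + 1), and a miRNA was called at a Benjamini-Hochberg adjusted p under 0.05 and at least 2-fold. Of the 8 entries 7 were tested, and these 7 were called higher in dermal papilla cells, whereas 25.2% of the 503 tested entries were called in that direction. In hair matrix cells 0 of the 7 were higher, in limma calls, in limma at an unadjusted p under 0.05 and in edgeR and DESeq2, against 19.9% of tested entries called by limma in that direction. Their libraries did not overlap between cell types, with the dermal papilla libraries on the higher side, as was true for 41.7% of all tested entries. The median log2 change of the 7 was 6.22, against -0.01 over all tested entries. For miR-493, miR-370, miR-432, miR-433, miR-136 and miR-431 the highest fitted log2 change over the pseudocounts and tools was over 1.5 times the lowest. The change of miR-432 ran from 3.15 (pseudocount 10) to 9.98 (DESeq2). Of the 7, 5 reached 1 RPM in no hair matrix library: miR-370, miR-432, miR-433, miR-136 and miR-431. These 5 passed the filter through dermal papilla cells alone, which fixes their direction. That leaves their count, their lack of overlap, their p-values and the median log2 change of the 7 without weight. miR-493 reached 1 RPM in hair matrix replicate 3 alone among the hair matrix libraries, so it too needed dermal papilla libraries to pass. Only miR-127 reached 1 RPM in all 6 libraries.

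**Figure D1:**
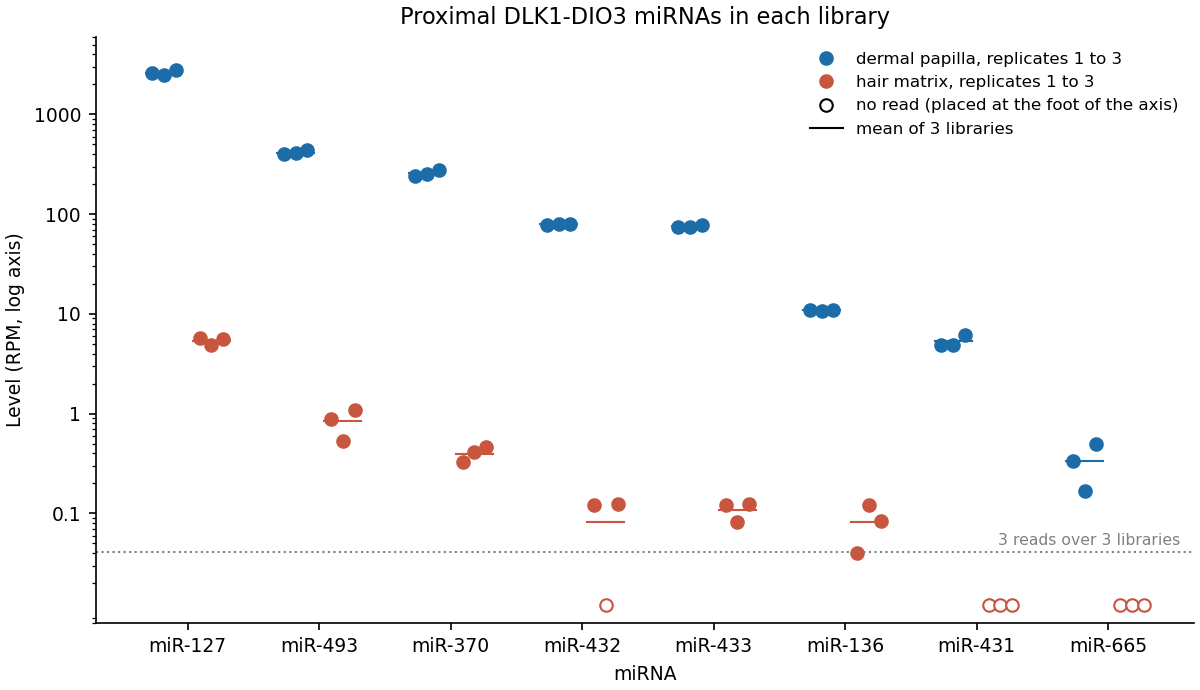
Level of each of the 8 miRNAs in RPM (log axis) in the 3 dermal papilla libraries (blue) and the 3 hair matrix libraries (red), with open circles at the foot for libraries without a read, lines for means and a dotted line at 3 reads over the 3 hair matrix libraries. In dermal papilla cells the means run from 2619 RPM for miR-127 to 0.332 RPM for miR-665, and no hair matrix library reaches 6 RPM for any of them.

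miR-127, the best-known miRNA antisense to RTL1, was the most abundant of the group and ranked 29 among the 757 entries with cattle names in dermal papilla cells. It was at 2592, 2467 and 2797 RPM in dermal papilla replicates 1, 2 and 3 and at 5.79, 4.86 and 5.54 RPM in hair matrix replicates 1, 2 and 3. All 3 dermal papilla libraries lay far above every hair matrix library. The means of 2619 ± 166 and 5.40 ± 0.482 RPM (SD, n = 3) gave a ratio of 485.2, with a 95% interval of 439.7 to 537 from the counting error alone. The log2 change was 8.68 ± 0.08 (SE; limma adjusted p = 3.74e-10).

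Among the other miRNAs antisense to RTL1, miR-432 and miR-433 had nearly the same level. miR-432 was at 77.1, 80.4 and 80.5 RPM in dermal papilla libraries and at 0.121, 0 and 0.125 RPM in hair matrix libraries, where replicate 2 held no read and the others held 3 reads each. miR-433 was at 74.5, 74.7 and 78.1 RPM in dermal papilla libraries and at 0.121, 0.0817 and 0.125 RPM in hair matrix libraries, or 3, 2 and 3 reads. In dermal papilla cells the means of 79.4 ± 1.92 and 75.8 ± 2.04 RPM (SD, n = 3) lay close together. The highest miR-433 library was above the lowest miR-432 library, so the ranges of the pair overlapped. Both miRNAs passed the filter through dermal papilla cells alone, which fixed the direction of the changes that follow. Their p-values therefore carry no weight. The log2 changes between cell types were 6.22 ± 0.08 for miR-432 (SE; limma adjusted p = 9.02e-10) and 6.11 ± 0.07 for miR-433 (SE; limma adjusted p = 6.49e-10).

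miR-136 and miR-431, the other members of the antisense group, were much lower. miR-136 was at 11.00, 10.69 and 11.05 RPM in dermal papilla libraries (263, 256 and 268 reads) and at 0.0405, 0.123 and 0.0833 RPM in hair matrix libraries (1, 3 and 2 reads). Its dermal papilla values were the most even of the group, with a coefficient of variation of 1.78% where counting alone would give 6.17%. Its log2 change was 3.46 ± 0.07 (SE; limma adjusted p = 8.09e-09). miR-431 was at 4.89, 4.93 and 6.10 RPM in dermal papilla libraries and had no read in any hair matrix library. Against a floor of 3 reads over the 3 hair matrix libraries, 0.0410 RPM, its dermal papilla mean was 129.5-fold higher. The exact 95% counting interval of the ratio began lower, at 104.9. The fitted log2 change of 2.65 ± 0.10 (SE; limma adjusted p = 1.62e-07) depends on the pseudocount and understates that ratio. With a pseudocount of 10 the change was 0.61 and the call was lost. Both miR-136 and miR-431 passed the filter through dermal papilla cells alone, which fixed their direction, so their p-values carry no weight.

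Outside the antisense transcript, miR-493 and miR-370 followed miR-127 in abundance. miR-493, which lies on the MEG3 side, was at 400.3, 406 and 436 RPM in dermal papilla libraries and at 0.891, 0.531 and 1.08 RPM in hair matrix libraries. Replicate 3 of the hair matrix cells, at 26 reads, was the only one of them at 1 RPM. The ratio of means was 495.7 and the log2 change 7.83 ± 0.12 (SE; limma adjusted p = 1.60e-09). miR-370, known in liver for acting on the fatty-acid oxidation enzyme CPT1A, was at 239, 253 and 276 RPM in dermal papilla libraries and at 0.324, 0.408 and 0.458 RPM in hair matrix libraries. Its ratio of means was 646 and its log2 change 7.52 ± 0.08 (SE; limma adjusted p = 6.49e-10). miR-370 passed the filter through dermal papilla cells alone, which fixed its direction, so its p-value carries no weight. miR-665 was nearly undetected, at 0.335, 0.167 and 0.495 RPM in dermal papilla libraries (8, 4 and 12 reads) and without a read in hair matrix libraries. It failed the filter and was not tested. Against the floor of 3 reads over the group its dermal papilla mean was 8.10-fold higher, and the exact 95% counting interval began at 6.11. In dermal papilla cells the most and the least abundant of the 8 differed 7882-fold. Levels of different miRNAs also carry the capture efficiency of each sequence in library preparation, which was not measured here.

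The size of the difference is compared here on the ratio of mean RPM, which needs no pseudocount. It was 485.2 for miR-127, 495.7 for miR-493, 646 for miR-370, 693 for miR-433 and 966 for miR-432. The 95% counting intervals were 387 to 650 for miR-493, 450.3 to 966 for miR-370, 444 to 2639 for miR-432 and 352 to 1606 for miR-433. Each overlapped that of miR-127, but the intervals are wide and the differences between these ratios were not tested. miR-136 stood lower, with a ratio of 132.9 and an interval of 60.9 to 364, which lies below the intervals of miR-127, miR-493, miR-370 and miR-432 and overlaps that of miR-433. This lower ratio rests on 6 hair matrix reads. The intervals and floors cover counting error only.

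The order of the most abundant miRNAs, miR-127, miR-493 and miR-370, was the same in the cell types, while the shares of the lower ones differed on very few hair matrix reads. miR-127 made up 74.8% to 76.2% of the reads of the 8 miRNAs in dermal papilla libraries and 74.7% to 81.0% in hair matrix libraries, and the groups overlapped. miR-493 made up 11.8% to 12.3% and 8.84% to 14.6%, also with overlap. The share of miR-370 was 7.04% to 7.68% in dermal papilla libraries and 4.44% to 6.80% in hair matrix libraries, without overlap. Over the pooled hair matrix reads, however, the exact binomial 95% interval of its share was 3.88% to 8.14%, which covers the dermal papilla value of 7.41%. miR-432 took 2.18% to 2.44% in dermal papilla libraries and 0% to 1.69% in hair matrix libraries, and miR-433 took 2.12% to 2.27% and 1.36% to 1.69%, both without overlap. The pooled hair matrix intervals of 0.437% to 2.57% and 0.686% to 3.10% (exact binomial) cover the pooled dermal papilla shares of 2.29% and 2.19%. miR-136 went the other way, from 0.300% to 0.324% in dermal papilla libraries to 0.556% to 2.04% in hair matrix libraries, without overlap. Pooled, its share was 0.315% and 1.19%, and the exact binomial interval of the latter, 0.437% to 2.57%, lies above the dermal papilla share, on 6 reads. These pooled intervals cover counting error only and not the spread between libraries. No miR-431 read among 505 hair matrix reads of the group allows a share of up to 0.728% (exact binomial), above its dermal papilla share of 0.153%, so the loss of miR-431 from the mixture was not detectable at this depth.

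**Figure D2:**
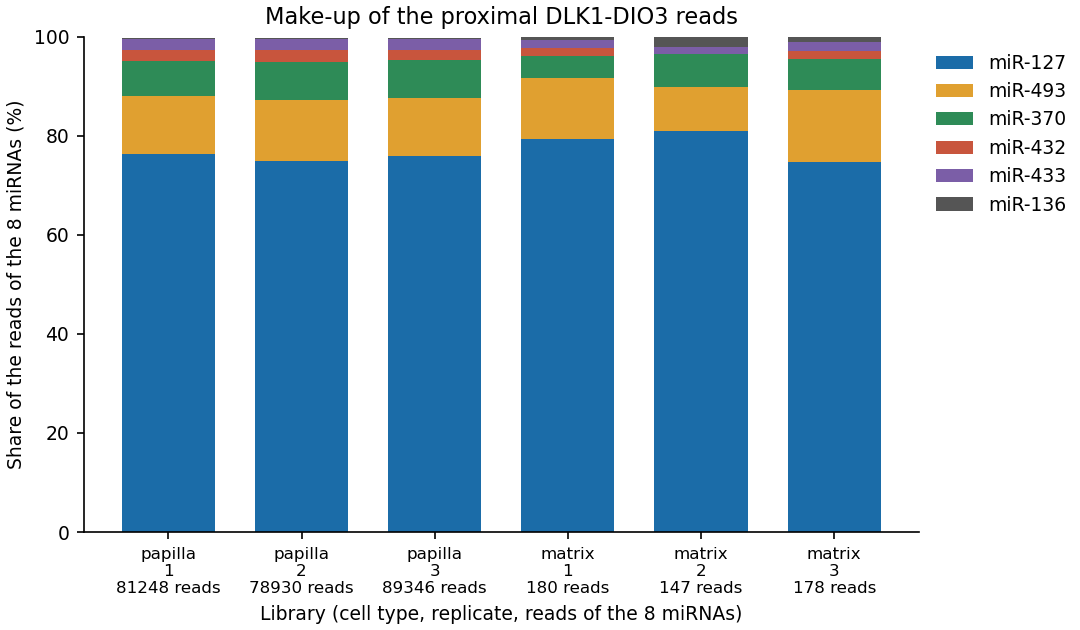
Share of the reads of the 8 miRNAs (%) taken by each of the 6 most abundant, stacked, in each library, with the number of reads of the 8 under each bar. miR-127 takes 74.7% to 81.0% of every bar, although the hair matrix bars rest on 147 to 180 reads and the dermal papilla bars on 78930 to 89346.

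The few hair matrix reads were set beside those of other dermal papilla miRNAs. For the 6 proximal miRNAs with at least 10 RPM in dermal papilla cells and a read in hair matrix cells, the hair matrix level was 0.104% (miR-432), 0.144% (miR-433), 0.155% (miR-370), 0.202% (miR-493), 0.206% (miR-127) and 0.752% (miR-136) of the dermal papilla level. For 21 entries of the miR-379 to miR-656 cluster chosen in the same way it was 0.101% to 0.433%, with a median of 0.227%. The 6 mesenchymal marker entries had larger shares, 1.03% to 1.76%, which did not overlap those of the proximal miRNAs. In the opposite direction, the 7 epithelial marker entries were present in dermal papilla cells at 0.235% to 2.88% of their hair matrix level, with a median of 0.342%. The source of the hair matrix reads was not tested.

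**Figure D3:**
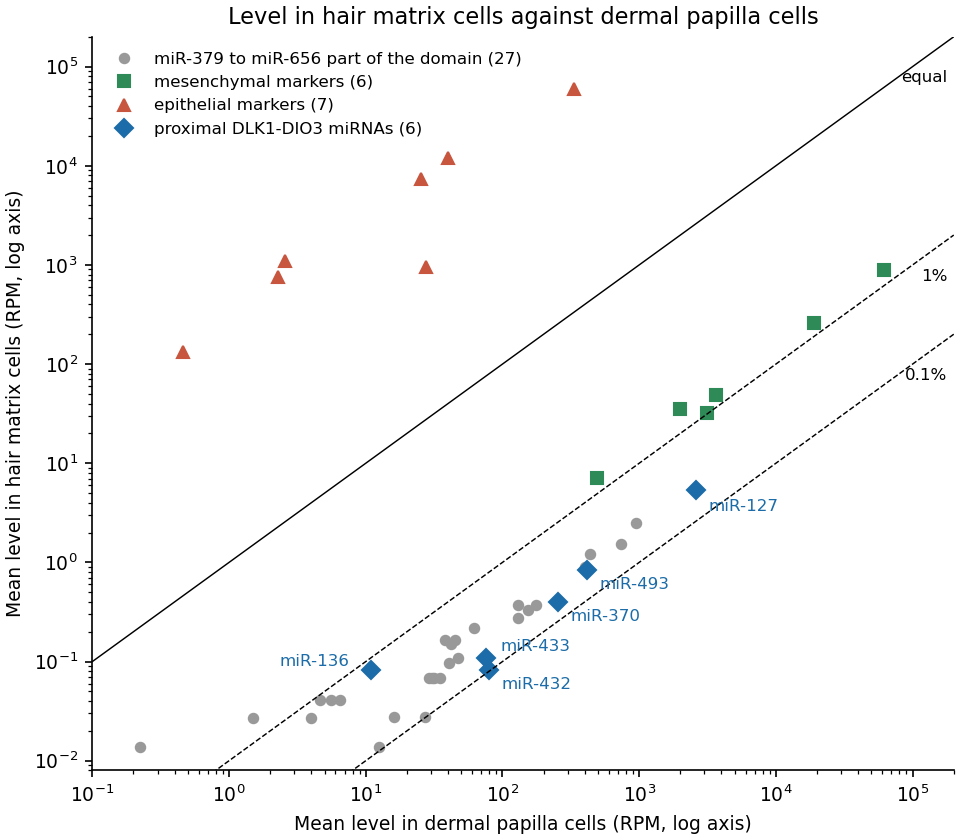
Mean RPM in hair matrix cells against mean RPM in dermal papilla cells (log axes, 3 libraries each) for the entries with reads in both, by list, with lines at equal levels, 1% and 0.1%. The 6 proximal miRNAs lie between the 1% and 0.1% lines, among entries of the miR-379 to miR-656 cluster, and the 6 mesenchymal marker entries lie above the 1% line.

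A pair of ratios with miR-127 was tested over the libraries, chosen after the values were seen. Per 1000 reads of miR-143, the most abundant mesenchymal marker, miR-127 had 43.1, 40.1 and 44.1 reads in dermal papilla libraries and 6.70, 5.85 and 5.55 reads in hair matrix libraries. Every hair matrix library was lower, and the means differed 7.04-fold, so miR-127 was lower relative to miR-143 in hair matrix cells than in dermal papilla cells. An exact two-sided permutation test gave p = 0.1, the smallest that 3 against 3 allows, and 0.2 adjusted over the 2 ratios, which does not pass 0.05. Per 1000 reads of miR-379, the first miRNA of the distal cluster, miR-127 had 3418, 3451 and 3875 reads in dermal papilla libraries and 4333, 3719 and 2830 in hair matrix libraries. These groups overlapped, with means of 3581 ± 255 and 3627 ± 756 (SD, n = 3; exact two-sided permutation p = 1.0, and 1.0 adjusted).

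The rest of the domain, 45 entries of the miR-379 to miR-656 cluster, gave 32 tested entries. Of these, 32 were called higher in dermal papilla cells, against 25.2% of the 503 tested entries. The median log2 change of the 32 was 4.91. Again 28 of the 32 reached 1 RPM in no hair matrix library, which fixed their direction and leaves this count and median without weight. The most abundant in dermal papilla cells were miR-411a, miR-379, miR-381 and miR-154c, with means of 941, 732, 437 and 398 RPM, all under the level of miR-127. With a pseudocount of 10, and with a filter of 10 RPM, 21 were called. The 8 proximal miRNAs held 48.0% to 50.8% of the reads of the domain in dermal papilla libraries, about as many as the 45 distal entries together. In hair matrix libraries their share was 41.3% to 45.8%. The groups did not overlap. Pooled over libraries the share was 49.0% of 509749 reads in dermal papilla cells and 43.6% of 1158 reads in hair matrix cells. The exact binomial interval of the latter, 40.7% to 46.5%, lies below every dermal papilla library. It covers counting error only and not the spread between libraries. The intervals of dermal papilla replicates 2 and 3, 47.8% to 48.2% and 50.5% to 51.0%, did not overlap. The difference in share between the cell types was not tested. Single hair matrix libraries are less precise, with intervals from 36.6% to 50.9%.

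Within the dermal papilla cells, all 8 proximal miRNAs were highest in replicate 3. The library was at 107% of the mean of the 3 for miR-127, 105% for miR-493, 108% for miR-370, 103% for miR-433, 101% for miR-432 and miR-136, 115% for miR-431 and 149% for miR-665. The same library was highest for 37.8% of the 503 tested entries, for 61 of the 127 entries called higher in dermal papilla cells, and for 5 of the 21 distal entries with at least 10 RPM. For miR-127, miR-370 and miR-493 the spread between the 3 libraries was well above counting noise, with a chi-square statistic per degree of freedom of 255, 33.0 and 21.0, where counting noise alone gives about 1. For miR-431 it was 2.15, on 117 to 148 reads. For miR-433, miR-432 and miR-136 it was 1.33, 1.11 and 0.0826, so the excess of replicate 3 could not be told from counting noise in these. Without replicate 3 the group's share of listed reads in dermal papilla cells was 0.458%, and the 7 calls were the same in number.

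**Figure D4:**
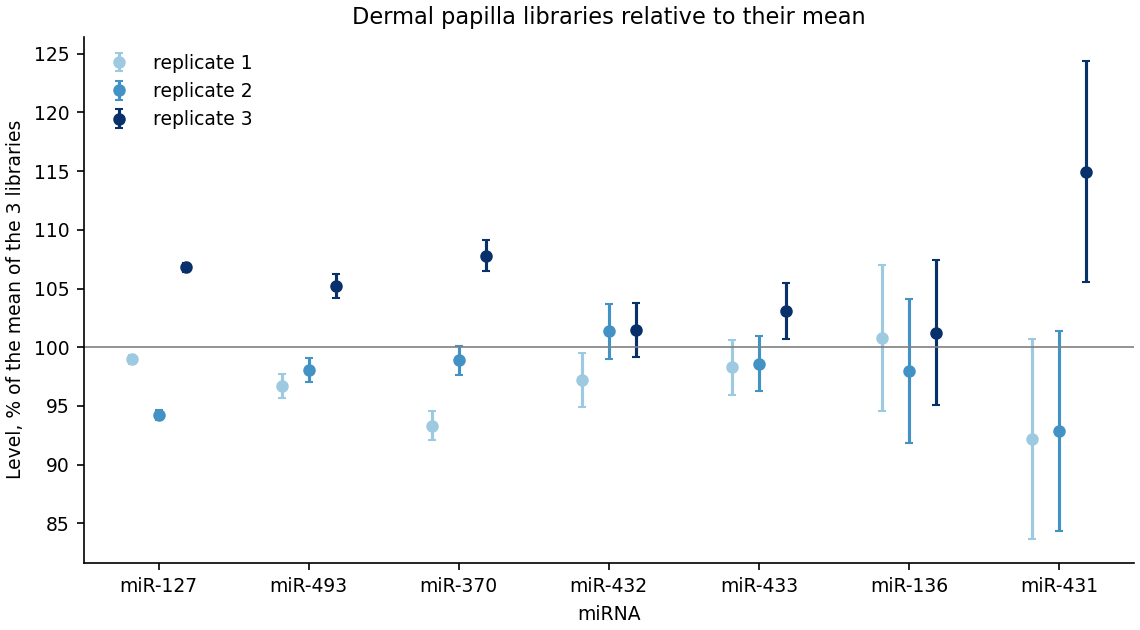
Level of 7 of the miRNAs in each dermal papilla library as a percentage of the mean of the 3, with bars of 1 counting SD. Replicate 3 is the highest for every miRNA shown, and its bar stays clear of the other bars for miR-127, miR-493, miR-370 and miR-431.

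Many miRNAs outside the domain had a profile of the same shape, high in the 3 dermal papilla libraries and low in the 3 hair matrix libraries. By the root mean squared difference of centred log2(RPM + 1) over the 6 libraries, the 5 entries most like the mean profile of the 7 tested miRNAs were miR-143, miR-199b, miR-199a-3p, miR-10b and miR-3604. miR-143 differed by 0.06 and miR-3604, the fifth, by 0.15 on the log2 scale. Pearson's r over the 6 libraries was 0.9998 for miR-143, but 73 of the 374 entries with cattle names outside the domain exceeded 0.99, since the single contrast between cell types sets it. The log2 changes of the 5 were 6.10, 6.20, 6.19, 6.19 and 5.98. They were more abundant than every proximal miRNA, with 3626 (miR-199b) to 61652 RPM (miR-143) in dermal papilla cells. In hair matrix cells they were at 48.5 (miR-199b) to 898 RPM (miR-143), above every proximal miRNA there. The likeness holds on the log2(RPM + 1) scale only, where the pseudocount shrinks the changes of the low proximal miRNAs. On the ratio of mean RPM, miR-143 differed 68.6-fold and miR-199b 74.8-fold between the cell types, against 485.2-fold to 966-fold for miR-127, miR-493, miR-370, miR-433 and miR-432.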

How the data were processed

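The deposited values, which the authors call TPM, are RPM (reads per 1000000 of a library total), since in each library 100% of them are whole multiples of 1 step within 0.001 read. Whole reads were recovered from them. Other deposited columns give each entry's sequence and its length in bases. Per the submitters' processing notes, Trimmomatic, HISAT2 2.2.1.0 and DESeq 1.20.0 were used, without stated roles. The build, the source of the miRNA names and the handling of multiply matching reads are not given in the sources used.

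log2(RPM + 1) of the 503 entries that reached 1 RPM in 3 or more of 6 libraries was fitted in limma 3.58.1 under R 4.3.3. The model held cell type alone, with trended moderated variances and Benjamini-Hochberg adjustment over all 503. The fit was tested on simulated data with 50 entries at each fold. It called 0% of 1.5-fold, 28% of 2-fold, 90% of 4-fold and 100% of 16-fold changes in the right direction. Of 303 unchanged entries it called 0. The 2-fold minimum largely sets the outcome at 1.5-fold, at 2-fold and for unchanged entries. Changes above 16-fold with almost no reads in a cell type, the case of most of the miRNAs described here, were not simulated. Ratios were tested with scipy 1.17.1. Intervals are exact (Clopper-Pearson). Alternatives included edgeR 4.0.16 and DESeq2 1.42.0 on the recovered reads, other pseudocounts, filters and scalings, and leaving out each library. The miRNAs, lists and tests were chosen with earlier results of these data known. Named outside the group were the 4 most abundant distal entries, the 5 most alike profiles and the leading entries of each marker list.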

Additional observations from a re-analysis of the deposited data

How the results depend on the processing

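The count of 7 called miRNAs was 6 with a pseudocount of 10 (miR-431 lost) and with a filter of 10 RPM (miR-431 not tested). It was 7 under each of the other 17 alternatives, and 0 were called higher in hair matrix cells under any. The filter passed 5 of the 7 through dermal papilla cells alone, so these counts carry no weight. No log2 change of the 7 turned its direction. Their size depended on the pseudocount, least for miR-127, from 7.41 (pseudocount 10) to 8.99 (DESeq2). The others ran, from pseudocount 10 to DESeq2, from 5.29 to 9.02 for miR-493, 4.68 to 9.40 for miR-370, 3.15 to 9.98 for miR-432, 3.08 to 9.50 for miR-433 and 1.05 to 7.12 for miR-136, and from 0.61 to 10.00 (edgeR) for miR-431. With no filter miR-665 was tested, at 0.41 (limma adjusted p = 0.0102), under 2-fold. The 32 distal calls became 21 with a pseudocount of 10 and 21 with a filter of 10 RPM, which left 21 tested. Of the 32, 28 had passed the main filter through dermal papilla cells alone, so these counts carry no weight either. Leaving out each library in turn with the tested entries held fixed left 7 and 32 calls each time. Those fits leave 2 libraries in a cell type. The shares of listed reads then ran from 0.458% to 0.490% in dermal papilla cells and from 0.000911% to 0.00101% in hair matrix cells. Median centring moved the median log2 change of all tested entries from -0.01 to -0.29. The labels number replicates 1 to 3 in each cell type but do not say whether a number pairs libraries. Deviations of same-numbered libraries correlated at 0.14, 0.08 and -0.27. Those of differently numbered libraries ran from -0.43 to 0.39, so these correlations cannot decide whether the libraries are paired. With the replicate number as a block the counts were 7 and 32, the same as without. In hair matrix cells 1 read is worth about 0.04 RPM, and the hair matrix levels of miR-432, miR-433 and miR-136 rest on 6 to 8 reads each.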
